A study of Mus musculus with 8 samples.

Results

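The natural killer lectin genes studied here are Klrb1, Klrb1b, Klrb1c, Klrb1f, Clec2d and Clec2g, 6 mouse genes chosen by name. Klrb1 led to the choice because it had reads in the knockout libraries only, so its difference between the groups is a description and is given without a test. Of the 6 genes, 3 were matched to a row among the 24988 genes of the table, namely Klrb1, Klrb1c and Clec2d. Klrb1b, Klrb1f and Clec2g were not analysed here. The data are RNA sequencing of whole adult testis in 8 libraries, 4 labelled wild type and 4 labelled knockout with the genotype Kpna2-/-. The product of Kpna2 is an importin, which carries other proteins into the nucleus. Beyond adult, the labels give no age, and they give no strain and no treatment for either group, nor do they tell if each library stands for an animal of its own. The p-values therefore measure only the spread between these libraries, which may be technical.

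Klrb1 genes encode the NKR-P1 receptors, membrane proteins with a C-type lectin-like domain that are carried mainly by natural killer (NK) cells and some T cells. Several of these receptors have ligands among the Clr proteins, which the neighbouring Clec2 genes encode. Receptor and ligand genes thus lie interleaved in the NK gene complex. The product of Klrb1b is an inhibitory receptor that binds the product of Clec2d, and the product of Klrb1c is NK1.1, the surface antigen by which NK cells are recognised in some mouse strains. In the testis, lymphoid cells are a minor population of the tissue between the tubules.

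Depth ranged from 31133443 to 37797812 gene reads per library. The unit is CPM as the authors scaled it, and each group is summarised by its mean ± SD (n = 4). Log2 differences are those of log2(CPM + 0.5), knockout minus wild type, a scale that shrinks the differences of low genes. A gene is called at a limma adjusted p under 0.05. Kpna2, the targeted gene, stood at 13.97, 15.1, 14.04 and 12.4 CPM in the wild-type libraries and at 15.3, 20.2, 19.4 and 21.7 CPM in the knockout libraries. It was thus not lower but higher under the knockout label, without overlap (limma adjusted p = 0.0079). Every direction given is therefore that of the libraries labelled knockout. Which stretch of the gene was deleted is not stated in the labels. The 11 testis genes checked were all present, and their sum ranged from 14799 to 15694 CPM in wild type and from 12040 to 16531 CPM in knockout. Of these 11, limma called 3, all lower in knockout, where 8.32% of all tested genes were called lower: Sox9 of Sertoli cells (17.7 ± 1.05 to 11.9 ± 1.85 CPM), Acta2 of smooth muscle and peritubular cells (41.3 ± 4.77 to 28.5 ± 3.80 CPM) and Cyp17a1 of Leydig cells (326 ± 46.6 to 207 ± 51.0 CPM). The part of such shifts in the results on the lectin genes was not tested.

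The sequences before the RefSeq transcription starts (GRCm38.p6, 250 bases each, read 5′ to 3′ on the gene's strand) are shown for the lectin genes on which the results turn. They are the 3 matched genes and the pair Clec2h and Clec2e, which had reads in the wild-type libraries only. Capitals mark the longest run shared with the window of another of the 12 lectin genes compared: Klrb1b for Klrb1, Klrb1a for Klrb1c, Clec2g for Clec2d, and each other for Clec2h and Clec2e.
Klrb1 (chr6:128723098-128723347, minus strand): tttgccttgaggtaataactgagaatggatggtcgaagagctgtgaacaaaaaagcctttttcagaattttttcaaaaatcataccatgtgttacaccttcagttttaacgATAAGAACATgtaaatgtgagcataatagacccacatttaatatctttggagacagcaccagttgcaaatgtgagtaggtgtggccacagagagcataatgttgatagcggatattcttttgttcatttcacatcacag
Klrb1c (chr6:128788642-128788891, minus strand): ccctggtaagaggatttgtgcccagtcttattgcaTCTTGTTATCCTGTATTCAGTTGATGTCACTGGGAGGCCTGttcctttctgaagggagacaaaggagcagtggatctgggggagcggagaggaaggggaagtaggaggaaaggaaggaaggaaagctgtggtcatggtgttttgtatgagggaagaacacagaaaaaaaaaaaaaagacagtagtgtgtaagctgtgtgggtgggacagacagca
Clec2d (chr6:129180365-129180614, plus strand): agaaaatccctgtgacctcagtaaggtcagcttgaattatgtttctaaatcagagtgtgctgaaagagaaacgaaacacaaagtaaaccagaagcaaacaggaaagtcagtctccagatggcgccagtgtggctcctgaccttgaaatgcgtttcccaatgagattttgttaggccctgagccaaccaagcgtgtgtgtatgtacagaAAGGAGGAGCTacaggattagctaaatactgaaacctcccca
Clec2h (chr6:128662135-128662384, plus strand): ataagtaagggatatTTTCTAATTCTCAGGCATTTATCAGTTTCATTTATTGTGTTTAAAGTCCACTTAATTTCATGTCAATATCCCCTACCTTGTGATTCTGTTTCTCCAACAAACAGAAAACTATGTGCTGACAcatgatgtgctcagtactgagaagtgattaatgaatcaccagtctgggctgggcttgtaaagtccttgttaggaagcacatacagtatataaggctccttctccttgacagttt
Clec2e (chr6:129100904-129101153, minus strand): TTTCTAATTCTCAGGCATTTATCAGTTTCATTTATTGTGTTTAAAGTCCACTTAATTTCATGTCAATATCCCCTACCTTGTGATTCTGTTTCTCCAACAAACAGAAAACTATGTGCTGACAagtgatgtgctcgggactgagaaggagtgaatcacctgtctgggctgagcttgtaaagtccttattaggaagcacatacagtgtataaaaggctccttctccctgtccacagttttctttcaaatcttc
The windows of Clec2h and Clec2e shared an unbroken run of 121 bases, and 82.2% of their aligned positions were identical. For Klrb1c and Klrb1a the run was 41 bases and the identity 64.8%. The windows of this latter pair lie inside the genes as GENCODE places them, with starts further upstream than those of RefSeq. The window of Klrb1 shared no run longer than 10 bases with any of the other 11, and that of Clec2d none longer than 11. The identity of the Klrb1 window was 58.8% with Klrb1b and 58.2% with Klrb1f. With the rest it was at most 51.7%, for Clec2h. Of 3 motifs searched on both strands, TATAAA was found in the windows of Clec2e, Klra8 and Klra9 and in 13.0% of 27025 promoters of the same length. TGTGGT was found for Klrb1c and Klrb1a and in 14.2% of promoters, and TGACGTCA for none of the 12 and in 1.62% of promoters.

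Klrb1, whose product is also named NKR-P1G, was read in the 4 libraries labelled knockout alone. Its gene (ENSMUSG00000079299) is protein coding and lies on the minus strand of chromosome 6, at 128705836 to 128723059 in GRCm38. Klrb1 had 0 reads in each of the 4 wild-type libraries, and 745, 766, 628 and 711 reads in knockout replicates 1 to 4. In CPM these were 21.7, 21.9, 20.3 and 20.7, with a mean of 21.2 ± 0.799. The groups lay far apart, and the 4 knockout libraries lay close together. Counting error alone gives an SD of 0.793 CPM at this depth, so the spread between these libraries was about that of read sampling. A count of 0 allows up to 3 reads per library, that is 0.0786 to 0.0906 CPM in the wild-type libraries, so the knockout mean was at least 245-fold higher. Such limits cover counting error only. In this bulk tissue, fewer cells of a type and less RNA per cell cannot be told apart.

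**Figure D1:**
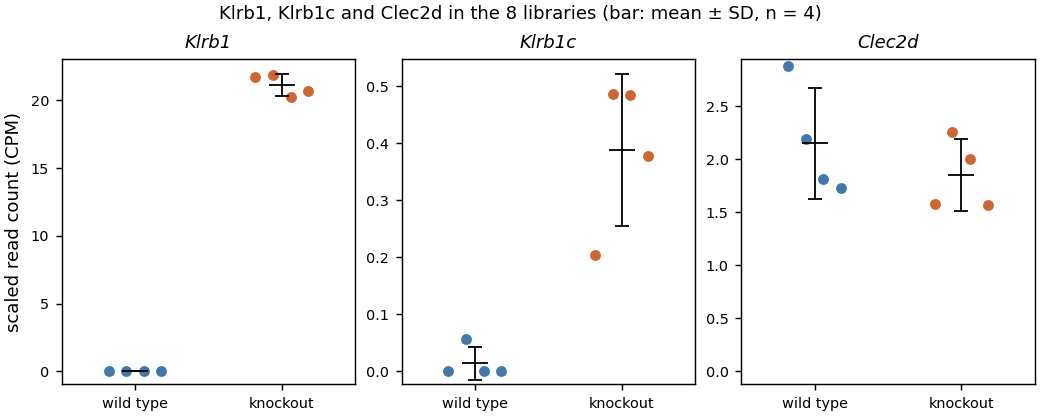
Scaled read counts (CPM, linear axes that differ between panels) of Klrb1, Klrb1c and Clec2d in the 4 wild-type and 4 knockout libraries, with points for libraries and bars for mean ± SD. Klrb1 sits at 0 in wild type and between 20.3 and 21.9 CPM in knockout, Klrb1c is at most 0.0578 CPM in wild type, and the groups of Clec2d overlap.

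The level of Klrb1 under the knockout label was not low for this tissue. Its mean CPM was above that of 69.5% of the genes in the table, and its mean CPM per kilobase of annotated exon above that of 82.4% of genes. None of the 1355 stretches of 50 bases in its annotated transcripts occurred in a transcript of another gene in GENCODE release M21. For Klrb1c, 17.0% of such stretches occurred in another gene, and for Clec2d 1.98%. The sources used here do not give the authors' treatment of reads with several matches.

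Klrb1c, the gene of NK1.1 (ENSMUSG00000030325; minus strand, chromosome 6, 128778485 to 128789215), had the same direction at a far lower level. It had 0, 2, 0 and 0 reads in wild-type replicates 1 to 4, and 7, 17, 15 and 13 reads in knockout replicates 1 to 4. This is 0.0144 ± 0.0289 CPM against 0.388 ± 0.133 CPM, and each knockout library was above each wild-type library. Klrb1 and Klrb1c were thus the 2 of 3 chosen genes whose groups did not overlap, where 20.1% of all genes in the table showed no overlap, and for Klrb1 the choice used that difference. The ratio of the pooled reads per depth was 27.0, with a 95% exact interval of 7.10 to 229 for counting error. Klrb1c lay under the filter of a mean of 0.5 CPM over all 8 libraries. In the limma fit without that filter, where 16.3% of 24988 genes were called and 8.22% were higher, Klrb1c was higher with an adjusted p of 0.0015. In edgeR without a filter, which called 16.1% of genes, 8.2% as higher, its adjusted p was 0.00079. With each of the 8 libraries left out in turn, Klrb1c was called by limma 8 times. No row of the table had under 30 reads in total, and Klrb1c reached that number only through the knockout libraries. Its p-values and calls are therefore a description.

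Clec2d encodes Clr-b, the ligand of the inhibitory Klrb1b receptor (ENSMUSG00000030157; plus strand, chromosome 6, 129180615 to 129186534). Its values were 2.88, 2.20, 1.81 and 1.73 CPM in wild-type replicates 1 to 4, and 1.58, 2.26, 2.00 and 1.57 CPM in knockout replicates 1 to 4. The groups overlapped, at means of 2.15 ± 0.524 and 1.85 ± 0.338 CPM. Its log2 difference was -0.16 with an SE of 0.16, and the limma adjusted p was 0.52 among 22027 tested genes, of which 16.9% were called. Without wild-type replicate 1, where Clec2d was highest, the difference was -0.04.

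Of 11 relatives of the Klrb1 and Clec2 families outside the chosen genes, 5 were matched to a row, and of these the ligand genes Clec2h and Clec2e went the opposite way to Klrb1. Clec2h, the gene of Clr-f, had 19, 12, 20 and 20 reads in wild-type replicates 1 to 4 and 0 reads in each knockout library, that is 0.510 ± 0.113 CPM against no read. Clec2e, the gene of Clr-a, had 5, 13, 13 and 5 reads in wild-type replicates 1 to 4 and 0 in each knockout library, a mean of 0.262 ± 0.141 CPM against no read. Clec2h and Clec2e are the pair with the shared run of 121 bases printed above. Against a floor of 3 reads per library, the wild-type means were at least 5.70-fold higher for Clec2h and at least 2.93-fold higher for Clec2e. Their adjusted p-values were 9.2e-05 and 0.012 in limma without a filter, and 1.1e-04 and 0.0030 in edgeR without a filter. The shares of all genes called lower were 8.08% and 7.89% in these fits. Both genes reached the lowest row total of 30 reads only through the wild-type libraries, so these p-values are a description. None of the 50-base stretches of Clec2e occurred in another gene, against 2.15% for Clec2h.

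Clec2i, the gene of Clr-g, was read in both groups, with 20, 19, 13 and 8 reads in wild-type replicates 1 to 4 and 9, 10, 5 and 6 reads in knockout replicates 1 to 4. Its groups overlapped, and its adjusted p was 0.13 in limma without a filter. Klrb1a, a further receptor gene of the family, overlapped as well, at 0.540 ± 0.222 CPM in wild type and 0.415 ± 0.0491 CPM in knockout (adjusted p = 0.58). Clec2m, listed as 4922502D21Rik and joined to that name through RefSeq, was by far the most abundant relative. It stood at 930 ± 36.6 CPM in wild type and 1027 ± 97.8 CPM in knockout, with a log2 difference of 0.14 and a limma adjusted p of 0.15.

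Of 24 genes of other Klr receptors 5 were matched to a row, and 2 of these had reads in the knockout libraries only. Klra8 and Klra9 encode receptors of the Ly49 family, which bind class I histocompatibility molecules. Klra9 had 0 reads in each wild-type library and 23, 17, 21 and 19 reads in knockout replicates 1 to 4, with a knockout mean of 0.597 ± 0.0936 CPM, at least 6.93-fold higher. Klra8 had 0 reads in each wild-type library and 7, 20, 10 and 11 reads in knockout replicates 1 to 4, with a knockout mean of 0.355 ± 0.155 CPM, at least 4.12-fold higher. Both were higher in limma without a filter, with adjusted p-values of 2.1e-05 for Klra9 and 0.0020 for Klra8, in a fit that called 8.22% of all genes higher. They reached the lowest row total of 30 reads only through the knockout libraries, so these p-values too are a description. These 2 genes share 31.5% and 33.1% of their 50-base stretches with other genes, so their identity is less certain than that of Klrb1. Klre1 (0.164 ± 0.0809 against 0.400 ± 0.184 CPM), Klrg1 (0.648 ± 0.349 against 0.272 ± 0.0794 CPM) and Klrg2 (1.35 ± 0.242 against 1.41 ± 0.142 CPM) overlapped between the groups and were not called.

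**Figure D2:**
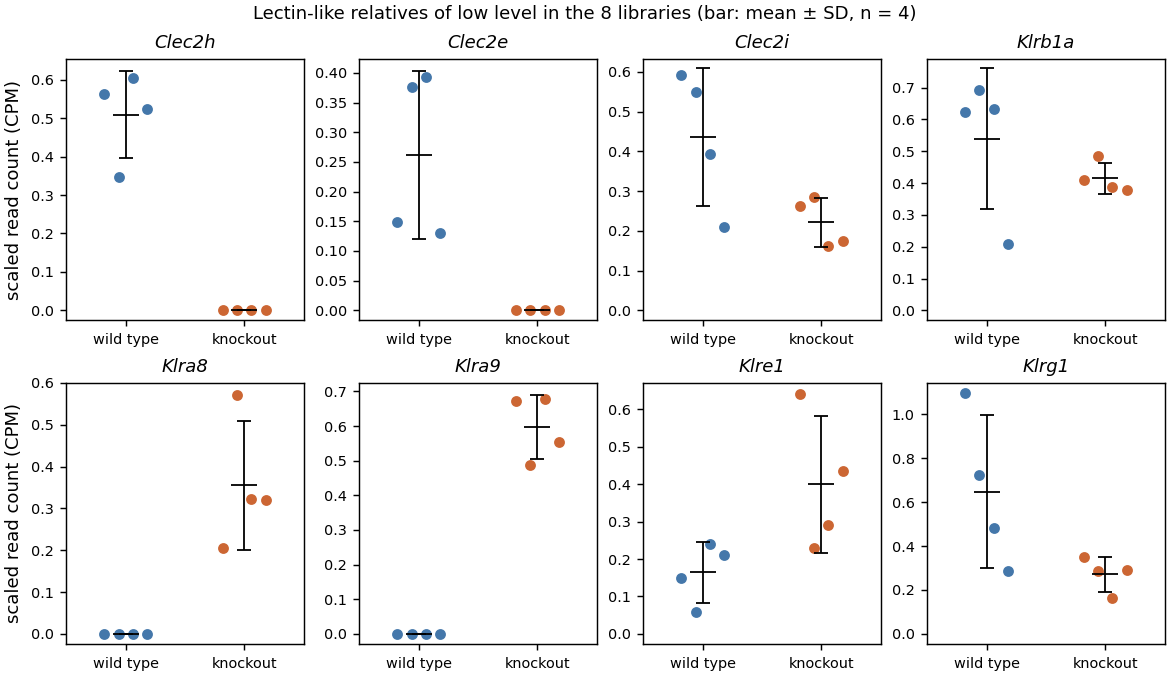
Scaled read counts (CPM, linear axes that differ between panels) of 8 low lectin-like relatives in the 4 wild-type and 4 knockout libraries, with points for libraries and bars for mean ± SD. Clec2h and Clec2e are at 0 in all 4 knockout libraries, Klra8 and Klra9 at 0 in all 4 wild-type libraries, and the other 4 genes overlap between the groups.

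Per kilobase of annotated exon, the order of levels of the Klrb1, Clec2 and Klra genes under the knockout label was Clec2m with 568 ± 54 CPM per kb, Klrb1 with 15.1 ± 0.57, Clec2d with 1.53 ± 0.28, Klra9 with 0.467 ± 0.073 and Klra8 with 0.301 ± 0.13. Klrb1a followed with 0.260 ± 0.031 CPM per kb, Klrb1c with 0.131 ± 0.045 and Clec2i with 0.0711 ± 0.020. In that order, Klra8 did not differ from its neighbours Klra9 and Klrb1a, nor Klrb1c from Clec2i, by more than their summed SDs. Under the wild-type label the order per kb was Clec2m with 514 ± 20 CPM per kb, Clec2d with 1.78 ± 0.43, Klrb1a with 0.339 ± 0.14, Clec2h with 0.188 ± 0.042, Clec2i with 0.140 ± 0.056, Clec2e with 0.125 ± 0.067 and Klrb1c, from 2 reads, with 0.00488 ± 0.00975. From Klrb1a to Clec2e, neighbours in that order did not differ by more than their summed SDs. Klrb1 thus came next to Clec2m under the knockout label and had no read under the wild-type label.

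Called genes lie side by side with genes that were not called. Of the 5 genes of the table on each side of Klrb1, Clec2h and Clec2e were lower and Klrb1c was higher in the limma fit without a filter. The 7 that were not called were A2ml1, Gm44009, Klrb1a, Gm5884, Gm44066, Clec2i and Clec2d. Gm5884, a processed pseudogene between Klrb1a and Clec2h, stood at 62.1 ± 3.98 and 62.9 ± 4.86 CPM (limma adjusted p = 0.90). Within 2 Mb of Klrb1 the table held 63 genes. Of these, 20 were called without a filter, Klrb1 included, 12 higher and 8 lower, against 16.3% of all genes. Most of the 20 were not Klr or Clec genes. The largest differences after Klrb1 were those of the predicted genes Gm4691 (higher, log2 difference 1.80) and Gm44243 (lower, -1.27). Klrb1, chosen for its difference, is among the 12 higher. The 20 also hold Klrb1c, Klra8, Klra9, Clec2h and Clec2e. Each of these reached the lowest row total of 30 reads only through the group where it was higher. The calls around Klrb1 and their counts are therefore a description only.

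**Figure D3:**
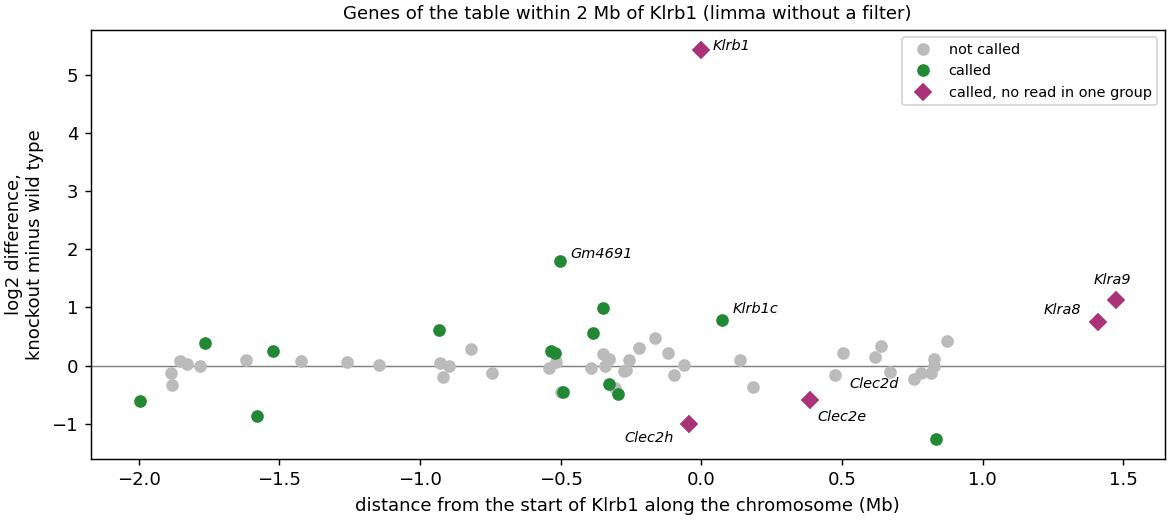
Log2 difference (knockout minus wild type, limma without a filter) of the 63 genes of the table within 2 Mb of Klrb1, against the distance from the start of Klrb1. Diamonds mark genes without a read in one group: Klrb1, Klra8 and Klra9 stand above 0, Clec2h and Clec2e below. Uncalled genes such as Clec2d stand between them. The predicted gene Gm4691, with reads in both groups, stands at 1.80.

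Genes without a read in all libraries of a group were rare. The table held 10 genes with no read in any wild-type library, of which 3 lie within 5 Mb of Klrb1 (Klrb1, Klra8 and Klra9), and 10 with no read in any knockout library, of which 3 lie there too (Clec2h, Clec2e and the predicted gene Gm44137). Of all 24988 genes, 139 (0.556%) lie within that distance. The window is centred on Klrb1, which was chosen for its lack of wild-type reads and counts itself. Without it, 2 of 9 genes with no read in any wild-type library lie there, and these counts are a description only. With at least 10 reads required in each library of the other group, 5 genes were read under the knockout label alone, and these were Klrb1, Klra9, Vmn2r61, Vmn2r-ps60 and Gm5594. Vmn2r61, Vmn2r-ps60 and Gm5594 had knockout means of 0.694, 0.585 and 0.455 CPM, the former pair being vomeronasal receptor entries. They lie together on chromosome 7, with starts from 42260053 to 42429828 in GRCm38. Vmn2r60, also without a wild-type read, starts nearby at 42107770. Genes without wild-type reads thus lay together there as well as near Klrb1. In the opposite direction 6 genes met the rule, the 5 of highest level being Gm28501, Olfr1314, AC122243.1, Clec2h and Gm48120. Klrb1 was the most abundant of these genes in either direction, and Gm28501 followed with 3.07 CPM under the wild-type label.

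Along chromosome 6, the share of called genes varied around Klrb1. In bins of 5 Mb, 29 of 103 tested genes (28.2%) were called from 5 Mb before Klrb1 up to its start, and 28 of 48 (58.3%) from 5 to 10 Mb after it, against 16.9% of all tested genes. From 10 to 5 Mb before Klrb1 it was 8 of 47 (17.0%). Bins further off also lay above 16.9%, such as 14 of 56 (25.0%) from 15 to 10 Mb before Klrb1. After it they were 7 of 31 (22.6%) from 10 to 15 Mb and 16 of 48 (33.3%) from 15 to 20 Mb. The bin of the first 5 Mb after the start counts Klrb1 itself. It had 12 tested genes, of which 4 were called, Klrb1 as the 1 higher and 3 lower. Of the 28 genes called 5 to 10 Mb after Klrb1, 9 were higher and 19 lower. Other bins lay on both sides of 16.9%, with 10 of 39 (25.6%) from 125 to 120 Mb before Klrb1 and 4 of 41 (9.76%) from 20 to 15 Mb before it. On the whole chromosome 220 of 1076 tested genes (20.4%) were called. Among the other autosomes the share ranged from 13.3% (chromosome 10) to 22.5% (chromosome 14). These shares are a description, since neighbouring genes are not independent and Klrb1 was chosen with its difference known.

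**Figure D4:**
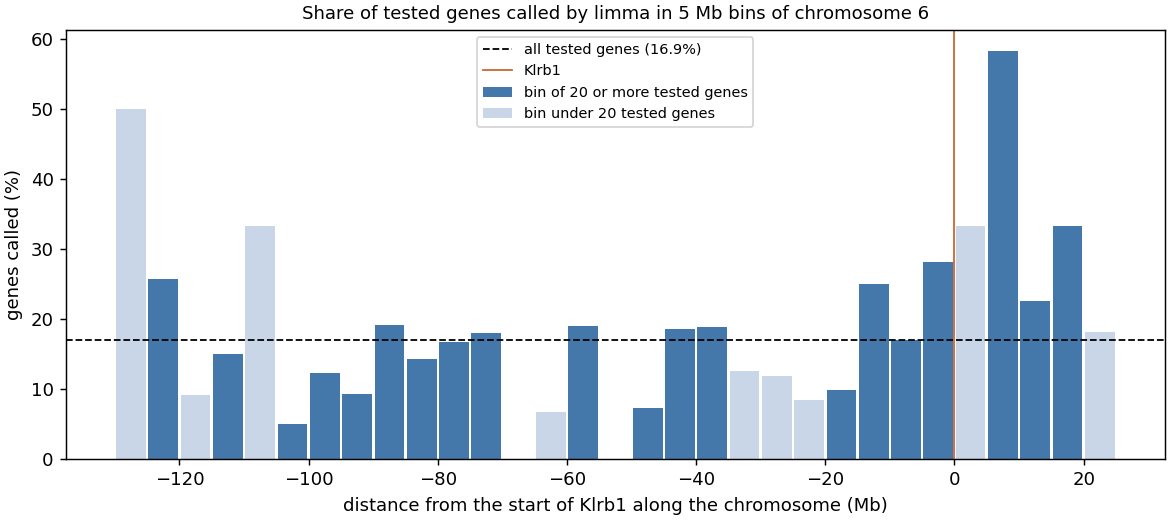
Share of tested genes called by limma in 5 Mb bins of chromosome 6, against the distance from the start of Klrb1 (vertical line), with pale bars for bins under 20 tested genes and a dashed line for all tested genes (16.9%). The highest bar, 58.3%, lies 5 to 10 Mb after Klrb1.

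The genes whose values over the 8 libraries were most like those of Klrb1 lie mostly on other chromosomes. By Pearson's r of log2(CPM + 0.5), a description in which the group difference dominates, they were Fmn1, a formin (r = 0.995), Igsf11 (r = 0.994), Hars, a histidine-tRNA ligase (r = 0.994), Lrrc61 (r = 0.993) and Zfp991, a zinc finger gene (r = 0.992). Of these, Lrrc61 lies on chromosome 6, at 48554796 in GRCm38. The size of their rise was far smaller than that of Klrb1, with CPM ratios of 2.93 for Fmn1, 1.21 for Igsf11, 1.27 for Hars, 2.00 for Lrrc61 and 1.65 for Zfp991.

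Markers of the lymphoid cells that carry NKR-P1 receptors had reads in both groups. Of 18 NK cell markers 9 had a row and 7 were tested, of which limma called 0, with 2 at an unadjusted p under 0.05, and edgeR and DESeq2 called 0. With 16.9% of all tested genes called, 0 of 7 does not set these markers apart. Their median log2 difference was 0.03, against -0.01 over all tested genes. Summed over the list, the levels were 41.8 to 44.6 CPM in wild type and 45.1 to 50.1 CPM in knockout. The sums did not overlap, as was so for 20.1% of all genes in the table. Slamf7, a receptor gene of several leukocytes, made up most of this sum, with 35.5 ± 1.47 and 39.1 ± 2.13 CPM (limma adjusted p = 0.14). Txk, a kinase gene, stood at 3.13 ± 0.597 and 2.67 ± 0.256 CPM. Eomes, a transcription factor of NK cells, had 63 reads in wild type and 99 in knockout. Il2rb, a chain of the interleukin receptor that NK cells need, had 77 in each group. The remaining markers with a row went both ways. Cd244a had 26 reads in wild type and 63 in knockout, and Ccl5 89 and 116. Fasl had 162 and 120, Il18r1 45 and 36, and Cd160 198 and 189. Ncr1, Nkg7, Prf1, Gzma and Gzmb were not analysed here.

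T cell markers went both ways. Of 12 with a row 8 were tested, of which 3 were lower and 1 was higher, against 8.32% lower and 8.62% higher among all tested genes, with a median log2 difference of -0.26. Cd5, a surface regulator of T cell signalling, fell from 0.921 ± 0.200 to 0.259 ± 0.155 CPM (limma adjusted p = 0.0019), without overlap. Trbc2, a constant segment of the T cell receptor beta chain, fell from 2.36 ± 0.498 to 1.21 ± 0.252 CPM (limma adjusted p = 0.0055), without overlap. Skap1, an adaptor gene, went from 3.92 ± 0.485 to 2.60 ± 0.876 CPM and Cd8b1, a coreceptor chain, from 1.39 ± 0.304 to 2.07 ± 0.274 CPM. The calls of Skap1 and Cd8b1 were lost in 9 of 17 and 8 of 16 alternatives, whereas those of Cd5 and Trbc2 held in all 16 run for each. Cd3d, a chain of the T cell receptor complex, ranged from 10.9 to 13.1 CPM in wild type and from 8.75 to 16.6 CPM in knockout. Cd3e and Cd3g, further chains of that complex, stood far lower. Cd3e ranged from 0.202 to 0.392 CPM in wild type and from 0.286 to 0.466 CPM in knockout. For Cd3g the ranges were 0.144 to 0.297 and 0.0646 to 0.553 CPM. The level of Cd3d is thus not that of the whole complex.

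Genes that pass on the signal of NKR-P1 receptors were measured in both groups. Of 9 tested, limma called 0, with 1 at an unadjusted p under 0.05, and edgeR and DESeq2 called 0, against 16.9% called among all tested genes. The gene at that unadjusted p was Lck, the kinase that activating NKR-P1 receptors use, at 1.70 to 2.34 CPM in wild type and 2.37 to 2.94 CPM in knockout, without overlap (limma adjusted p = 0.054). Fcer1g, the adaptor chain of activating receptors, ranged from 2.36 to 3.12 and from 2.27 to 2.83 CPM. Ptpn6, the phosphatase of inhibitory receptors, ranged from 1.62 to 2.23 and from 1.20 to 2.04 CPM. Ptpn11, a related phosphatase, and Inpp5d, a lipid phosphatase of inhibitory signals, were the most abundant of the list, with 31.6 ± 2.39 and 28.9 ± 3.30 CPM and with 20.3 ± 0.584 and 20.9 ± 3.04 CPM. The list's median log2 difference was -0.16.

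In the other leukocyte lists limma called 2 of 7 genes of all leukocytes, 1 of 6 tested B cell markers and 2 of 15 macrophage markers, against 16.9% of all tested genes. Counts this small are a description and are not read as a result about these lists. Of the genes of all leukocytes, Cd52 rose from 0.556 ± 0.146 to 1.37 ± 0.192 CPM and Arhgdib fell from 3.78 ± 0.691 to 2.35 ± 0.316 CPM, while the list's sum ranged from 13.9 to 17.1 CPM in wild type and from 13.6 to 16.5 CPM in knockout. Of the B cell markers Cd37 was higher, at 17.8 ± 2.14 and 22.6 ± 2.36 CPM, a call lost without wild-type replicate 1 or 3 or knockout replicate 4. Of the macrophage markers Apoe, an apolipoprotein gene that steroid-making and other cells also express, rose from 102 ± 8.35 to 141 ± 18.8 CPM. Cx3cr1, a chemokine receptor gene, went from 4.28 ± 1.02 to 2.87 ± 0.250 CPM, called in the main test but not in 10 of 17 alternatives. Of 8 myeloid C-type lectins with a row, which share the chromosome 6 complex or the lectin fold, 4 were tested and limma called 0, with 0 at an unadjusted p under 0.05, as did edgeR and DESeq2, a count too small to read against the 16.9% of all tested genes. Clec12b, an inhibitory receptor gene, stood at 11.2 ± 0.690 and 10.3 ± 0.351 CPM, and Clec4a2 at 9.90 ± 1.62 and 9.42 ± 1.36 CPM. The part of leukocyte number in the difference of Klrb1 was not tested.

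**Figure D5:**
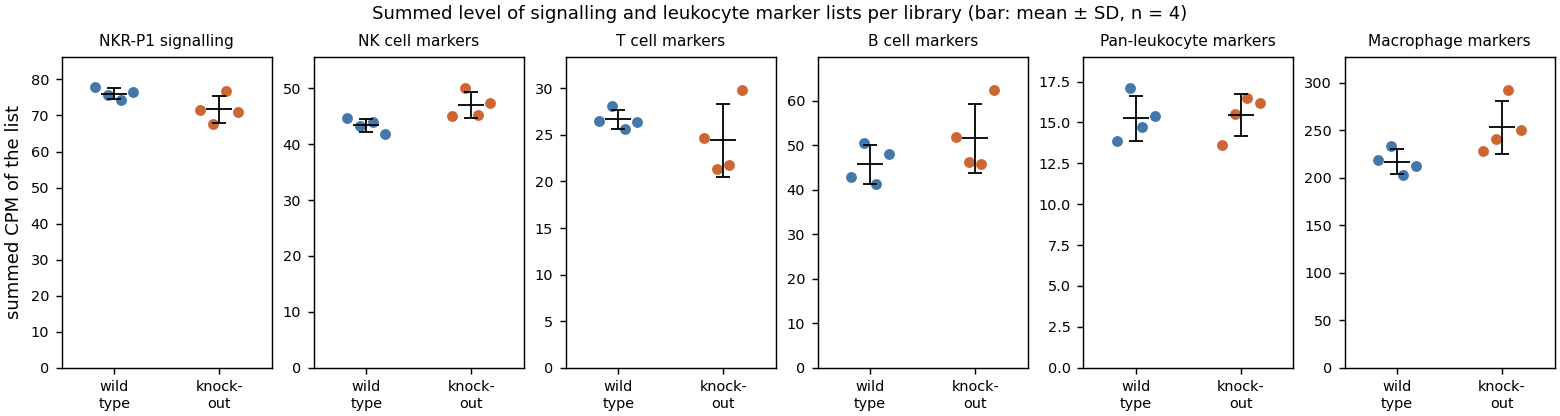
Summed CPM (linear axes from 0 that differ between panels) of 6 gene lists in the 4 wild-type and 4 knockout libraries, with points for libraries and bars for mean ± SD. The NK cell list ranges from 41.8 to 44.6 CPM in wild type and from 45.1 to 50.1 CPM in knockout. Most of its sum is Slamf7.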

How the data were processed

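Total RNA of adult mouse testis, extracted with TRIzol and treated with DNase, went into TruSeq RNA libraries (per the labels' protocols). Trimmomatic, Subread, featureCounts and the build GRCm39 (mm39) are named in the submitters' processing notes. Their versions, the annotation, the strand setting and the handling of multiply matching reads were not given in the sources used. The authors deposited 1 matrix of a scaled signal per gene, which they call CPM and whose columns sum to between 990244 and 1025489. The columns named control and kpn were matched to the wild-type and knockout titles by number. Divided by the smallest value above 0 of its column, each value came out whole within 0.01 (100% of values), which gave back the reads. The lowest row total was 30 reads.

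Groups were compared in R 4.3.3 by limma 3.58.1 (eBayes with trend) on log2(CPM + 0.5). The 22027 genes whose mean over the 8 libraries reached 0.5 CPM were tested, with Benjamini-Hochberg adjustment at 0.05. The plan had assumed plain CPM, and its test was kept. On the whole reads edgeR 4.0.16 (quasi-likelihood test) called 3694 of these genes and DESeq2 1.42.0 called 3977, both with the authors' scaling. The other alternatives were the pseudocount, the filter, median ratio scaling, the replicate number as a block and each library left out. Limma without a filter combined with a library left out, edgeR without a filter, and the alternatives for the level of Klrb1c were chosen after seeing the data. The limma script was tested on simulated data. Genes were named by a rule: the chosen genes, the nearest and most similar genes, those read in 1 group only, and up to 3 called genes per list with the first called gene in the other direction (2 of highest level where none was called). Genes named outside this rule were added after their values were seen. They were the relatives not covered by it, the NK cell markers other than Slamf7 and Txk, and Lck, Fcer1g and Ptpn6. Cd3d, Cd3e, Cd3g, Gm4691, Gm44243 and Vmn2r60 were added in the same way. The genes and lists were chosen with earlier results of these data known. Symbols were found for 24890 identifiers. Gene positions and transcripts are those of GENCODE M21 on GRCm38, and promoter sequences those of RefSeq on GRCm38.p6, another build than that of the authors, and were not converted. All 12 lectin genes compared had a promoter sequence. Pairs within a group differed by more than sampling noise (chi-square per degree of freedom 4.60 to 11.6).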

Additional observations from a re-analysis of the deposited data

Results flagged for a closer look

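Of 108 groups of 4 libraries checked over 54 genes, 6 had a library far from the other 3, where chance gives about 1 in 20. Klrb1c had reads in wild-type replicate 2 alone of its group (0.0578 CPM, from 2 reads). Klrb1a was low in wild-type replicate 4 (0.210 CPM against 0.623 to 0.693). Olr1, an endothelial and myeloid lectin gene, was high in knockout replicate 3 (0.387 CPM against 0.233 to 0.257), and Clec10a, a macrophage lectin gene, low in wild-type replicate 2 (1.21 CPM against 1.83 to 1.93). Skap1 was high in knockout replicate 4 (3.90 CPM against 2.04 to 2.29), and Cd8b1 in wild-type replicate 1 (1.84 CPM against 1.18 to 1.27).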

How the results depend on the processing

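Clec2d was called in 0 of 17 alternatives, with log2 differences of -0.25 to -0.04 and adjusted p-values of 0.35 to 0.90 across limma, edgeR and DESeq2. Klrb1 stood at 20.9 to 21.5 CPM under the knockout label with each knockout library left out, and Klrb1c at 0.356 to 0.450 CPM. Klrb1c, Clec2h, Clec2e, Klra8 and Klra9 were called by limma without a filter in all 8 fits that left out a library, at adjusted p-values up to 0.043 (Clec2e without wild-type replicate 2). Each of these genes reached the lowest row total of 30 reads only through the group where it was higher, so these calls are a description. Over all genes limma called 3731 and, with a library left out, 2788 to 3572. Same-numbered libraries of the 2 groups did not deviate together (correlations of -0.03 to 0.04), so the numbers were not taken to pair them. With the replicate number as a block limma called 3446, and Clec2d had an adjusted p of 0.54. Among the lists other than the testis markers 9 genes were called, 13 without a filter in limma and in edgeR, 10 with a pseudocount of 2 CPM, 6 to 7 with a library left out and 8 with the replicate block. With a filter at a mean of 2 CPM the number was 4, since fewer of the low list genes were then tested. Depth limits the low genes: 3 reads correspond to 0.0786 to 0.0968 CPM.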
